A study of Mus musculus with 6 samples.

Results

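The neuronal nicotinic acetylcholine receptor subunits were taken as 9 genes, Chrna2 to Chrna7 and Chrnb2 to Chrnb4. The series measured 22180 genes with a probe set of their own on 6 Affymetrix arrays. Each of the 9 genes had 1 probe set with a single gene symbol, so the rule, by which the probe set was chosen by its mean level over all 6 arrays, left no choice to make, and these mean levels are given as a description. The RNA came from mouse primary hippocampal cells, a mixed culture of young neurons and other cells taken from embryos at prenatal day 18. In 3 samples the cells carried AAV1/2, an adeno-associated virus, with a knockdown construct against Diras2, a small GTPase of the Ras family. In 3 control samples the virus carried a scrambled sequence instead. All 6 samples were infected 7 days after seeding and harvested 7 days later. The strain, the sex of the embryos, the construct's sequence and its promoter are not given in the sources used here, and no uninfected cells and no other knockdown construct were analysed, so what the lost Diras2 does and what the construct does besides cannot be told apart. The labels speak of biological replicates but name no separate cultures or litters, and p-values therefore cover the spread between these samples alone, which may be technical in part.

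Nicotinic receptors are channels that acetylcholine opens, letting sodium and calcium into the cell. Each channel is a ring of 5 subunits. Chrna7 encodes alpha7, which can form the whole ring alone and makes a fast channel with high calcium permeability that is abundant in the hippocampus. Most other neuronal receptors combine alpha and beta subunits, and the alpha4 and beta2 products of Chrna4 and Chrnb2 form the main high-affinity nicotine receptor of the brain.

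Knockdown of Diras2 was accompanied by lower Chrna7 and Chrnb2 RNA, while the other 7 subunits did not pass the test. Chrna7 was 3.15-fold lower in knockdown arrays and Chrnb2 1.64-fold lower. Chrna4, the usual partner of Chrnb2, had a log2 difference of 0.50 in the opposite direction, which did not pass. Of the 9 members 2 fell and 0 rose, against 3.64% of all genes tested that fell and 4.17% that rose (7.8% in either direction), by limma with Benjamini-Hochberg adjustment over all genes and a threshold of 0.05. The members were chosen with earlier results of these data known, so their counts of calls, here and below, are a description. At an unadjusted p under 0.05 there were 4 lower and 1 higher. The share of all genes under that unadjusted threshold was not counted. It lies well above the 7.8% called, since by limma a gene with an unadjusted p of 0.0499 (Ptk2b) had an adjusted p of 0.239. The 7.8% is therefore no measure for such counts, which here and below are given as a description. The median log2 difference of the 9 members was -0.07, with 6 below 0, and that of all genes tested was 0.00. The groups did not overlap for 4 of the 9 members, all lower in knockdown arrays, against 25.5% of all genes in either direction and 12.1% with knockdown arrays below. With the replicate number as a block, 1 member rose and 3 fell, against 6.05% and 5.64% of all genes in that fit.

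The promoter windows of the 2 subunit genes that fell are shown because both changed in the same direction. They are RefSeq sequences of build GRCm38.p6, read on the gene's own strand from 250 bases before to 50 bases after the annotated start. RefSeq windows were matched for 6 of the 9 members, 7 windows in all because Chrna5 has 2. Capitals mark the GC box GGGCGG, the E-box CACGTG, the Egr1 site GCGGGGGCG and TGACGT, a part of the cAMP response element that appears in the Chrnb2 window as its reverse complement. Both strands were searched, and no marked motif overlaps another.
Chrna7 promoter, chr7:63212477-63212776, minus strand: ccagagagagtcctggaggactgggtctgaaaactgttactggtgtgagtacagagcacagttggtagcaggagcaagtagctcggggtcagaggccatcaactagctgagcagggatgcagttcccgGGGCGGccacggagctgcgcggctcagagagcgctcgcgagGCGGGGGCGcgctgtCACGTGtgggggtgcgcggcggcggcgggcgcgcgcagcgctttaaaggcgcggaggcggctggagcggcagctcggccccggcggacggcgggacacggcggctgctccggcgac
Chrnb2 promoter, chr3:89764583-89764882, minus strand: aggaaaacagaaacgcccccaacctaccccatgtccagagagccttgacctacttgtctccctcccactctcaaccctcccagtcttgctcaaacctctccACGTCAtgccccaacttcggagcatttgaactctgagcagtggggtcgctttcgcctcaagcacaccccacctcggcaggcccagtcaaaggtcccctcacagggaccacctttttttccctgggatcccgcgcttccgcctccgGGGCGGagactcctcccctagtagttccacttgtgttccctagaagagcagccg

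Both windows hold 1 GC box, at -122 to -117 from the start in Chrna7 and at -4 to 2 in Chrnb2. A GC box was present in 35.7% of the 32851 promoter windows in the table and in 5 of the 7 windows of nicotinic subunits, among them that of Chrna4. The E-box, found in 7.15% of all windows, was in the Chrna7 window at -66 to -61 and in none of the other subunit windows. The Egr1 site, present in 2.91% of all windows, was likewise in the Chrna7 window alone, at -81 to -73. TGACGT, present in 7.51% of all windows, was in the Chrnb2 window alone, at -149 to -144. G and C made up 70.0% of the Chrna7 window and 59.0% of the Chrnb2 window, against a median of 52.7% over all windows. The motifs are letter matches in these windows and say nothing of binding.

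The arrays had medians of 4.03 to 4.11 on the log2 scale, a likeness that the normalisation of the deposited values brings about. Their values across genes correlated at 0.981 to 0.995. RNA integrity numbers were 9, 9.3 and 9.2 in knockdown samples and 9.2, 9 and 8.8 in control samples. The targeted gene checked the labels: Diras2 had levels of 7.17, 6.23 and 6.08 in knockdown arrays and 10.17, 10.17 and 9.76 in control arrays. It was 11.6-fold lower (log2 difference -3.54, SE 0.27, adjusted p = 0.00063 by limma), and an exact two-sided permutation test of Diras2 alone gave p = 0.1, the smallest that 3 against 3 arrays allow. Levels of different probe sets cannot be set against each other, since each binds its target differently. As a guide to the scale, the mean levels of all genes tested had quartiles of 3.38, 5.06 and 7.43. Chrna4, Chrna7 and Chrnb2 had mean levels of 5 or more, and in the other 6 members no array exceeded 4.91. Of those 3 brighter members 2 fell and 0 rose, against 6.67% of genes with such levels that fell and 7.78% that rose. Whether those 6 lay above background was not tested, because detection calls were not used here, and a fold of a gene near the floor of the array can be understated.

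**Figure D1:**
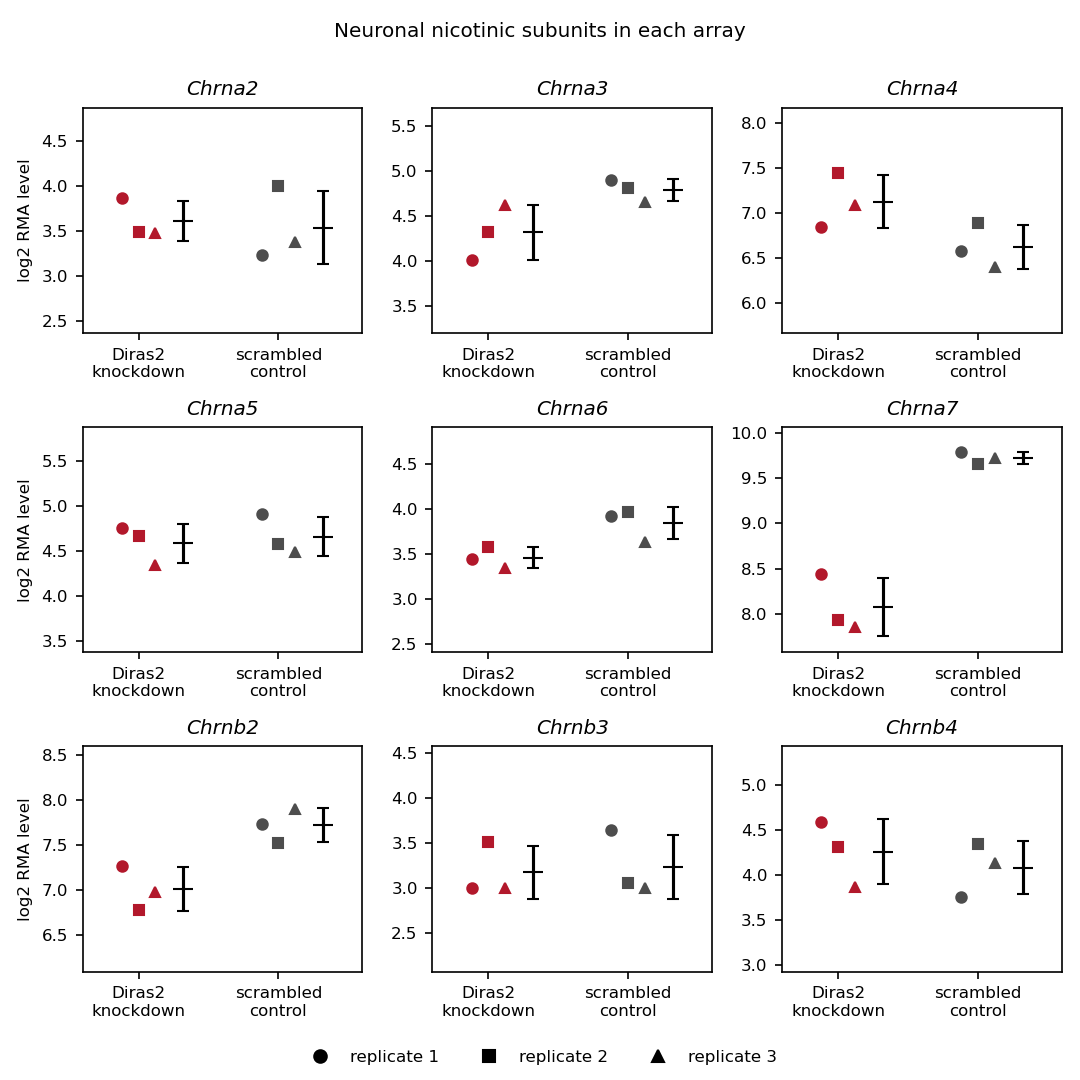
Log2 RMA level of each neuronal nicotinic subunit (vertical axis, the same span in every panel, with a different start) in the Diras2 knockdown arrays (red, left) and scrambled control arrays (grey, right). Symbols are replicates 1 to 3 and bars are mean ± SD (n = 3). The groups lie 1.22 log2 units apart for Chrna7 and 0.26 apart for Chrnb2.

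Chrna7 encodes the alpha7 subunit described above. Its levels were 8.44, 7.93 and 7.85 in knockdown replicates 1, 2 and 3, against 9.79, 9.66 and 9.73 in control replicates 1, 2 and 3. Every knockdown array lay below every control array, by at least 1.22 log2 units, and the control arrays were tightly grouped. The means were 8.07 ± 0.32 in knockdown and 9.73 ± 0.07 in control (SD, n = 3 each), a log2 difference of -1.65 (SE 0.16, 95% interval -2.02 to -1.29) with an adjusted p of 0.00126 by limma. Of the 22180 genes tested, 15 had a lower log2 difference than Chrna7. The call was kept in all 17 alternative settings, in which the log2 difference ran from -1.84 to -1.54 and the adjusted p from 0.000361 to 0.0112. Within the knockdown arrays, replicate 1 had the highest level of Chrna7 and also the highest level of Diras2. With 3 arrays that order was not tested.

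Chrnb2 encodes beta2, a structural subunit that joins alpha4 and several other alpha subunits. Its levels were 7.26, 6.78 and 6.98 in knockdown arrays, against 7.73, 7.52 and 7.90 in control arrays. The groups did not overlap, with 0.26 log2 units between the highest knockdown array and the lowest control array. The means were 7.01 ± 0.24 in knockdown and 7.72 ± 0.19 in control (SD, n = 3 each), a log2 difference of -0.71 (SE 0.15, 95% interval -1.06 to -0.36) with an adjusted p of 0.0285 by limma. Its call depended on most of the arrays, and was lost without knockdown replicate 2 (adjusted p 0.104), knockdown replicate 3 (0.0987), control replicate 1 (0.0617), control replicate 2 (0.0543) or control replicate 3 (0.0739), and when RNA integrity was a covariate (0.114). The adjusted p over all alternatives ran from 0.0125 to 0.114, and the log2 difference stayed between -0.84 and -0.57.

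Chrna4 encodes alpha4, which carries the agonist-binding face of the high-affinity receptor. Its levels were 6.85, 7.44 and 7.09 in knockdown arrays, against 6.58, 6.89 and 6.40 in control arrays. Knockdown replicate 1 lay just below control replicate 2, so the groups overlapped. The log2 difference was 0.50 (SE 0.18, 95% interval 0.09 to 0.92) with an adjusted p of 0.150 by limma. Within each replicate number the knockdown array was above its control, by 0.27, 0.55 and 0.69 log2 units. With the replicate block the adjusted p was 0.0362, and over all alternatives it ran from 0.0362 to 0.436.

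The changes of these 3 subunits were then set against each other within arrays, which removes anything an array does to all genes alike. The log2 change of Chrna7 was lower than that of Chrnb2 by 0.94, since their difference in a knockdown array was 0.87 to 1.18 and in a control array 1.83 to 2.14. The change of Chrna4 exceeded that of Chrnb2 by 1.21 log2 units and that of Chrna7 by 2.16. In all 3 comparisons the groups did not overlap. The third comparison follows from the other 2, and Chrna7 and Chrnb2 alone already had groups without overlap. Other pairs of genes were not compared, so the lack of overlap is a description. Each comparison gave p = 0.1 in an exact two-sided permutation test over arrays, and 0.1 after adjustment over the 3. That is the smallest value this design allows, so none could pass a threshold of 0.05.

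**Figure D2:**
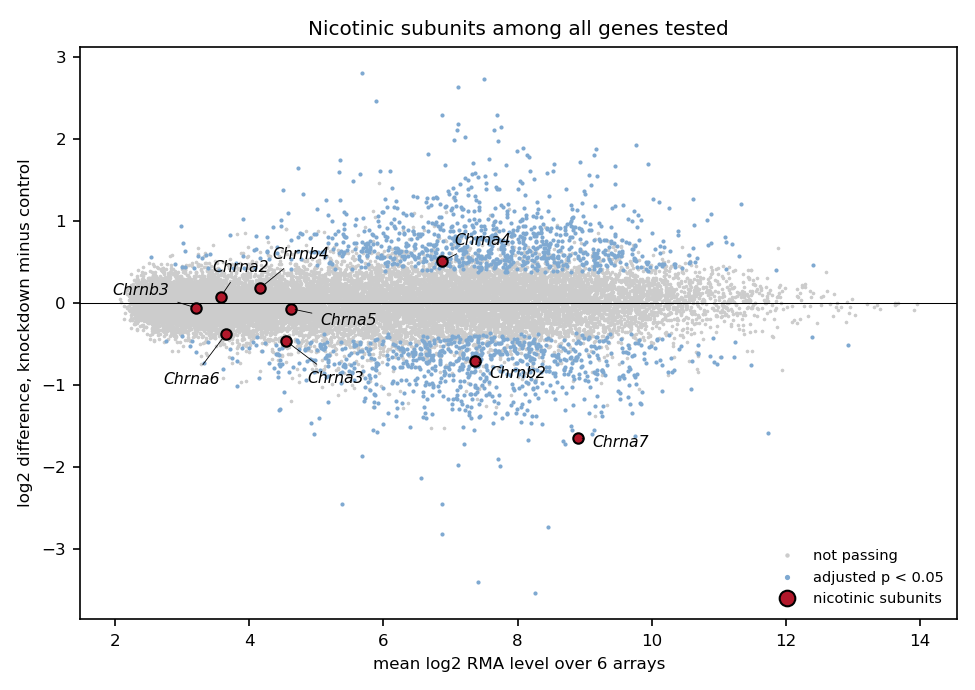
Log2 difference of each gene tested (vertical axis, knockdown minus control) against its mean log2 RMA level over 6 arrays (horizontal axis). Blue points passed an adjusted p of 0.05, grey points did not, and red circles are the nicotinic subunits. Chrna7 at -1.65 stands near the lower edge of the cloud, while Chrna2, Chrna5, Chrnb3 and Chrnb4 lie within its grey centre.

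Chrna6 and Chrnb3, which lie next to each other in the genome, encode alpha6 and beta3, subunits best known from dopamine neurons and the visual pathway. Chrna6 had levels of 3.45, 3.58 and 3.35 in knockdown arrays, against 3.92, 3.97 and 3.64 in control arrays. The groups lay 0.06 log2 units apart, and the knockdown array was lower within each replicate number, by 0.47, 0.39 and 0.29. Its log2 difference of -0.38 (SE 0.12, 95% interval -0.67 to -0.10) had an adjusted p of 0.112 by limma. With the replicate block the adjusted p was 0.0488 and with array weights 0.0395, and over all alternatives it ran from 0.0395 to 0.312. Chrnb3 had 3.00, 3.52 and 3.01 in knockdown arrays and 3.65, 3.06 and 3.01 in control arrays. Its groups overlapped fully, with a log2 difference of -0.06 (95% interval -0.54 to 0.41).

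Chrna5, Chrna3 and Chrnb4 form a gene cluster, and their products make up the main receptor of autonomic ganglia and of the medial habenula. Chrna3 encodes the ligand-binding alpha3 subunit. Its levels were 4.01, 4.33 and 4.62 in knockdown arrays, against 4.90, 4.81 and 4.66 in control arrays, so the groups were 0.04 log2 units from overlapping. The log2 difference was -0.47 (SE 0.16, 95% interval -0.84 to -0.10) with an adjusted p of 0.130 by limma, and it was not called with the replicate block either (0.126). The within-replicate differences of Chrna3 were uneven, at -0.89, -0.48 and -0.04. Over all its alternatives the adjusted p ran from 0.0704 to 0.294.

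Chrna5 encodes alpha5, an accessory subunit that does not bind agonist at the usual site. It had 4.75, 4.67 and 4.34 in knockdown arrays and 4.91, 4.58 and 4.49 in control arrays. The difference of -0.07 (95% interval -0.43 to 0.28) was well inside the spread between arrays. Chrnb4 encodes beta4, which pairs with alpha3. It had 4.59, 4.31 and 3.87 in knockdown arrays and 3.76, 4.34 and 4.13 in control arrays, which overlapped, and a difference of 0.18 (95% interval -0.30 to 0.66). The cluster therefore gave differences of both signs, none of which passed.

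Chrna2 encodes alpha2, which in the hippocampus marks interneurons of the stratum oriens that project to the outer layer. Its levels were 3.87, 3.49 and 3.48 in knockdown arrays, against 3.24, 4.00 and 3.38 in control arrays. The groups overlapped and the log2 difference of 0.07 (95% interval -0.40 to 0.55) was smaller than the spread within either group. The intervals of Chrna2, Chrna5, Chrnb3 and Chrnb4 all include 0. For each gene, changes within its own interval were not excluded, the widest reach being 0.66 for Chrnb4.

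**Figure D3:**
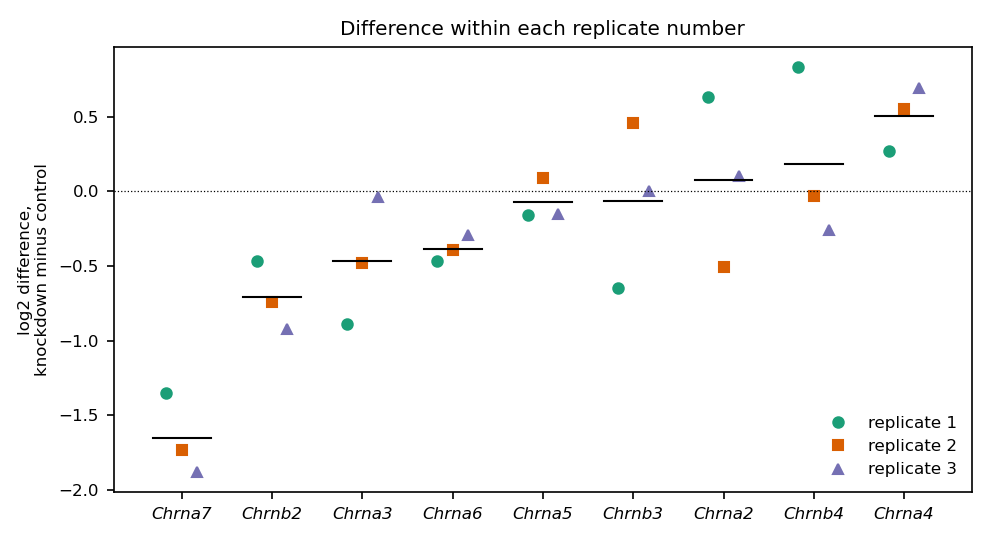
Log2 difference between the knockdown and control arrays of the same replicate number (vertical axis) for the 9 subunits, ordered by their mean difference (black line). Colours and symbols are replicates 1 to 3. The 3 differences share a sign for Chrna7, Chrnb2, Chrna3, Chrna6 and Chrna4, and scatter around 0 for Chrna5, Chrnb3, Chrna2 and Chrnb4.

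The subunits of muscle and of cochlear hair cells served as relatives that were not members. All 7 were measured, with levels of 2.85 to 4.82. By limma 0 rose, 0 fell and 7 did not pass, 0 had an unadjusted p under 0.05, and the median log2 difference was 0.06. The 3 with the smallest p were Chrna10 of hair cells, at 0.17 (adjusted p 0.538), and the muscle subunits Chrnd and Chrna1, at 0.09 and -0.13. Of the serotonin-gated cation channels of the same protein superfamily, Htr3a had a log2 difference of 0.33 (adjusted p 0.671 by limma) and Htr3b one of -0.24 (adjusted p 0.296).

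RNAs of proteins that fold nicotinic receptors or act on them at the surface mostly did not pass. Of 17 listed partners 16 were measured, and 2 rose, 1 fell and 13 did not pass, against 4.17% of all genes that rose and 3.64% that fell. Of genes with a mean level of 5 or more, 7.78% rose and 6.67% fell, and the partners called all had such levels. Their median log2 difference was -0.02. Lynx1, a membrane-anchored protein related to snake toxins that dampens nicotinic currents, had 9.86, 9.78 and 9.90 in knockdown arrays, against 8.69, 8.67 and 9.41 in control arrays. All knockdown arrays were above all control arrays, and control replicate 3 stood closest to them. Lynx1 rose 1.90-fold (log2 difference 0.92, SE 0.19, adjusted p 0.0262 by limma).

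Tmem35a, also called NACHO, is a chaperone of the endoplasmic reticulum that alpha7 needs for assembly. It had 8.84, 9.28 and 9.00 in knockdown arrays, against 8.03, 8.33 and 8.50 in control arrays. The groups did not overlap, and Tmem35a rose 1.69-fold (log2 difference 0.75, SE 0.16, adjusted p 0.0265 by limma). Ubxn2a, an adaptor reported to bind the alpha3 subunit and to affect its turnover, had 8.18, 8.15 and 7.87 in knockdown arrays, against 8.64, 8.56 and 8.74 in control arrays. Again without overlap, Ubxn2a fell 1.49-fold (log2 difference -0.58, SE 0.12, adjusted p 0.0231 by limma). The call of Lynx1 was lost without every array but control replicate 3 (adjusted p 0.0622 to 0.108). That of Tmem35a was lost without knockdown replicate 2 or 3 or control replicate 1 or 2 (0.056 to 0.0976) and when RNA integrity was a covariate (0.0851). That of Ubxn2a was lost without every array but knockdown replicate 1 (0.0508 to 0.0748) and when RNA integrity was a covariate (0.106).

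Ric3, another chaperone that promotes alpha7 assembly and here named after its values were seen, had 7.18, 6.66 and 6.76 in knockdown arrays, against 7.68, 7.52 and 7.18 in control arrays. Knockdown replicate 1 equalled control replicate 3. The log2 difference was -0.59 with an adjusted p of 0.0873 by limma. With the replicate block it was 0.0236, and over all alternatives it ran from 0.0225 to 0.261.

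**Figure D4:**
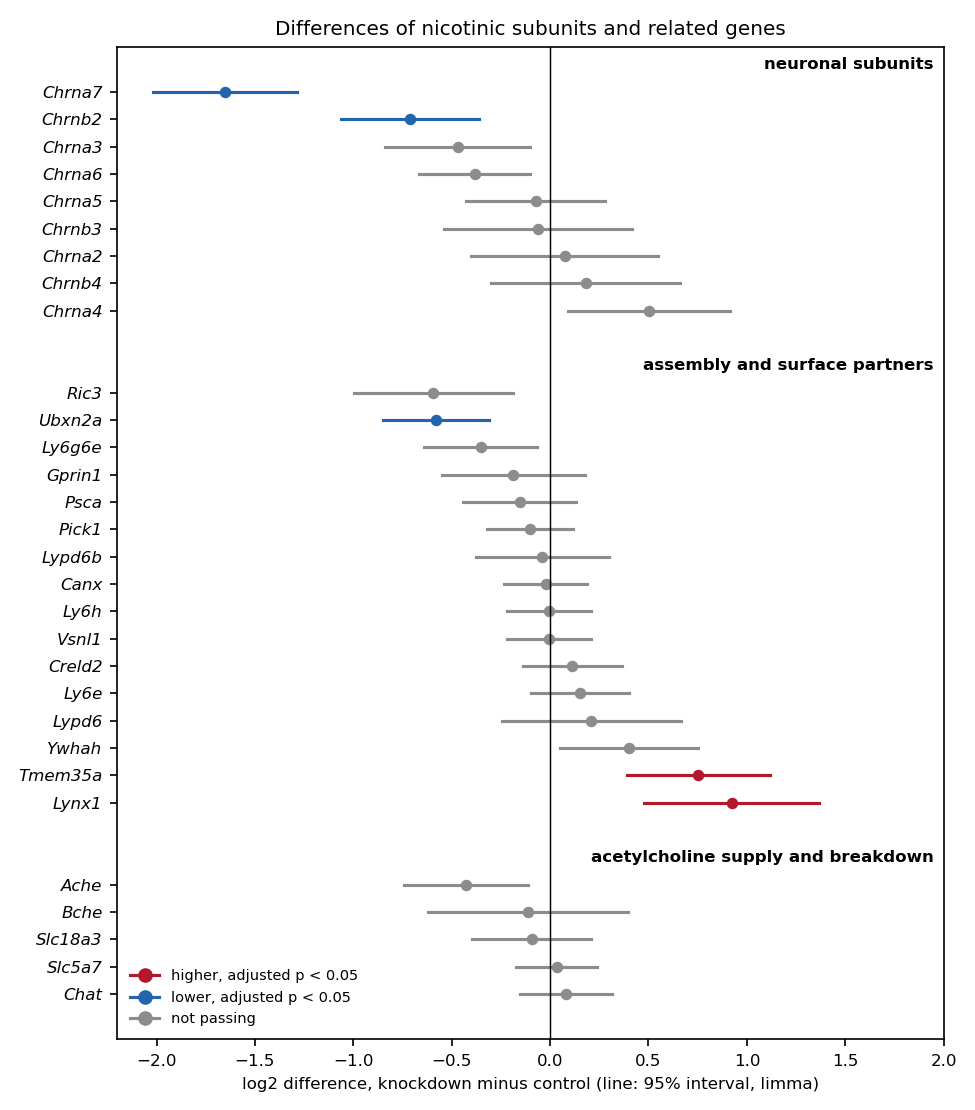
Log2 difference between knockdown and control (points, horizontal axis) with its 95% interval from limma (lines) for the neuronal subunits, their assembly and surface partners and the genes of acetylcholine supply and breakdown. Red and blue mark genes higher or lower in knockdown at an adjusted p under 0.05. Chrna7 has the lowest difference shown, -1.65, and Lynx1 the highest, 0.92.

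Genes that make, load, recover and break down acetylcholine did not pass. Of 5 measured, 0 rose and 0 fell by limma and 1 had an unadjusted p under 0.05, with a median log2 difference of -0.09. With the replicate block 1 fell, against 5.64% of all genes in that fit. Ache, the esterase that clears acetylcholine, had 7.42, 7.11 and 7.19 in knockdown arrays, against 7.88, 7.48 and 7.64 in control arrays. These groups did not overlap, and the log2 difference of -0.43 had an adjusted p of 0.111 by limma. With the replicate block it was 0.0314, and over all alternatives it ran from 0.0314 to 0.302. Chat, which makes acetylcholine, had a difference of 0.08 and Slc18a3, which loads it into vesicles, one of -0.09.

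The nearest genes on the chromosome were set beside the 2 subunits that fell. Around the 9 members, 31 of 36 neighbouring protein-coding genes were tested, and 1 rose and 2 fell, with a median log2 difference of -0.05, against the 4.17% and 3.64% of all genes given above. Of the 5 neighbours of Chrna7 that were tested 0 passed by limma, and of the 6 of Chrnb2 0 passed, each with 1 at an unadjusted p under 0.05. The 3 that did pass lay beside subunits that did not. Hykk, a kinase of hydroxylysine near Chrna5, fell 1.84-fold (adjusted p 0.0122 by limma). Ube2q2, a ubiquitin-conjugating enzyme beside Chrnb4, rose 1.57-fold (0.0171). Ephx2, an epoxide hydrolase beside Chrna2, fell 1.62-fold (0.0251). These calls were lost without knockdown replicate 2 or control replicate 2 (adjusted p 0.0595 to 0.0882), those of Hykk (0.0523) and Ephx2 (0.0634) also without knockdown replicate 3, and that of Ephx2 without control replicate 3 (0.058). All 3 were lost with RNA integrity as a covariate (0.0545 to 0.0988).

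Among 9015 genes with a mean level of 6 or more, the 3 whose log2 levels followed Chrna7 most closely over the 6 arrays were Copb1, Iglon5 and Eif3f, with Pearson correlations of 0.999, 0.9987 and 0.9978. Copb1, a coat protein of vesicles between the Golgi and endoplasmic reticulum, fell 2.04-fold and had 8.81, 8.45 and 8.44 in knockdown arrays, against 9.67, 9.54 and 9.57 in control arrays. Iglon5, a neuronal adhesion molecule, fell 2.26-fold, and Eif3f, a translation initiation subunit, 1.58-fold. Adjusted p-values by limma were 0.00304, 0.00192 and 0.00845. Those closest to Chrnb2 were Ufc1, Htra1 and Nfrkb, at 0.9973, 0.9942 and 0.993. Htra1, a secreted protease, fell 1.52-fold and Nfrkb, a chromatin remodelling subunit, 1.38-fold. These calls were lost without any array but knockdown replicate 1 (adjusted p 0.0506 to 0.150) and when RNA integrity was a covariate (up to 0.173), that of Nfrkb also with median centring (0.0611), and Ufc1, with a log2 difference of -0.17, did not pass. Many other genes among those searched also correlated highly with Chrna7 or with Chrnb2. With 6 arrays in 2 groups such values mostly restate the group difference and are given as a description.

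Cell type markers were read beside these results, because in a mixed culture fewer cells of a type and less RNA per cell cannot be told apart. Of all genes tested 3.64% fell and 4.17% rose, and of genes with a mean level of 5 or more 6.67% fell and 7.78% rose. The latter shares are those to set beside the neuron, excitatory, hippocampal, general inhibitory and somatostatin counts below. All measured markers of those lists had such levels. Of 5 general neuron markers 1 fell, Snap25 of the synaptic release machinery, and 4 did not pass. At an unadjusted p under 0.05 there were 2 lower, Snap25 and Syt1 (log2 difference -0.58), and 1 higher, Tubb3 (0.39), while Rbfox3 and Map2 had differences of -0.02 and -0.10. The log2 of their summed level was 13.65 to 13.92 in knockdown arrays and 13.95 to 14.26 in control arrays. Such sums add probe sets that bind differently and weigh the brightest most, here Snap25. They are a description and do not measure the number of cells. Snap25 fell 1.42-fold (adjusted p 0.0471 by limma), a call lost without every array but control replicate 3 (0.0811 to 0.168), with quantile normalisation (0.0719) or median centring (0.0712), and when RNA integrity was a covariate (0.0966). Of 6 excitatory neuron markers measured 0 passed by limma, 0 with an unadjusted p under 0.05, and the log2 sums overlapped, at 11.97 to 12.57 in knockdown and 11.61 to 12.52 in control. Of 4 markers used for the hippocampus 1 fell, Calb1, 1.91-fold (adjusted p 0.00156), and all 4 had levels of 5.53 or more in every array. Their median log2 difference was -0.42. Wfs1, at -0.63, had an unadjusted p under 0.05 and fell with the replicate block (adjusted p 0.0108 by limma). Zbtb20 and Prox1 had differences of -0.21 and 0.25.

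Of 6 measured markers of somatostatin interneurons Lhx6 fell 2.30-fold, Satb1 rose 2.17-fold and 4 did not pass. Their median log2 difference was -0.815, and their log2 sums overlapped between groups, at 11.35 to 12.53 in knockdown and 12.08 to 13.41 in control. Sst had the highest level of the 6 in every array and weighs most in these sums. Within replicate numbers 1, 2 and 3, the differences were -0.85, -0.57 and -1.05 for Sst, -0.72, -1.37 and -1.64 for Npy and -0.50, -0.86 and -1.06 for Nxph1, each below 0. These 3 markers and Lhx6 fell with the replicate block (adjusted p 0.00472 to 0.0113 by limma), and Satb1 rose. Elfn1, with a log2 difference of -0.26, did not pass with the block (0.150). Of 4 general inhibitory and 6 caudal interneuron markers measured 0 passed by limma, with 1 of each at an unadjusted p under 0.05, and of 5 Cajal-Retzius markers 1 fell, Ndnf, 2.05-fold. Adjusted p-values were 0.0063 for Lhx6, 0.0181 for Satb1 and 0.0127 for Ndnf. Satb1 lost its call without knockdown replicate 2 (0.0674) or 3 (0.0754) and Ndnf without control replicate 2 (0.0522). Among 4 oligodendrocyte precursor markers Pdgfra rose 6.96-fold (adjusted p 0.0104), a call lost without control replicate 2 (0.0575). The other 3 did not pass, with log2 differences of -0.05 for Cspg4, 0.23 for Sox10 and 0.52 for Olig2. The calls of Satb1, Ndnf and Pdgfra were lost, too, when RNA integrity was a covariate (0.0514 to 0.0868). Of the lists for astrocytes, microglia, endothelial cells, fibroblasts, skeletal muscle, and habenula and ganglion neurons, 0 members passed by limma. At an unadjusted p under 0.05 there were 2 microglia, 1 fibroblast and 1 habenula and ganglion marker, all lower in knockdown. With the replicate block the markers that fell numbered 4 for somatostatin interneurons, 2 for neurons and 2 for the hippocampus, and 1 each for inhibitory neurons, Cajal-Retzius cells, microglia, fibroblasts, and habenula and ganglion neurons. Those that rose were 1 for somatostatin interneurons and 1 for oligodendrocyte precursors. In that fit 5.64% of all genes fell and 6.05% rose. The part of cell composition in the results for Chrna7 and Chrnb2 was not tested.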

How the data were processed

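The authors deposited 1 log2 level for each probe set and array. Per the submitters' processing notes these come from Affymetrix Expression Console 1.2.1.20, by RMA, which corrects background, gives all arrays 1 distribution and summarises probes. Shifts common to most genes are thereby hidden and low signals compressed. Per the labels' protocols, amplified single-stranded DNA was biotin-labelled. Precision is limited by the number of arrays. Of 41345 probe sets, the platform annotation pairs 23521 with 1 gene symbol, 1814 with several and 16010 with none. The brightest probe set stood for each of 22180 genes, of which 21994 matched RefSeq by Entrez number, 0 with another symbol. Knockdown minus control was fitted with limma 3.58.1 (lmFit, eBayes, R 4.3.3) and adjusted by Benjamini-Hochberg over all genes. Folds are 2 raised to the log2 difference. Figures used matplotlib 3.10.9.

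The members and lists were chosen with earlier results of these data known. Named were all members, Diras2, called genes and the 3 smallest p in each related list, called neighbours among the 3 nearest protein-coding genes on each side, called markers, and the 3 genes most correlated with each called member. Some markers that were not called were named beside these, outside that rule.

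Same-numbered arrays deviated together from their group means (correlations 0.43, 0.12 and 0.37, all over 0.1, against -0.38 to 0.06 for the rest), so the numbers were taken as pairs, from the data and not the labels. The block stayed an alternative, beside leaving out arrays, other scalings, a level filter, an intensity trend, array weights, RNA integrity, other probe set rules and other thresholds.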

Additional observations from a re-analysis of the deposited data

How the results depend on the processing

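Chrna7 and Diras2 kept their direction and call in all 17 alternatives. Without 1 array at a time, genes called higher numbered 383 to 800 and lower 306 to 687, nicotinic subunits called lower 1 to 2, and partners 0 to 2 higher and 0 to 2 lower. With the replicate block 1252 genes, 3 subunits and 2 partners were lower and 1 subunit higher, with an adjusted p of 0.0362 for Chrna4. That block changed no other call of a subunit than those of Chrna4 and Chrna6. With array weights 1401 genes were higher and 1302 lower, with 2 partners lower. With RNA integrity as a covariate 402 genes were higher and 356 lower, with 1 subunit lower, 1 partner higher and 0 lower, and the median of the subunits was -0.32. At an adjusted p under 0.1, 1238 genes and 2 partners were lower, and at 0.01, 354 genes were higher and 290 lower, with 1 subunit lower and partners 0 higher and 0 lower. Signs turned only for genes that did not pass. Leaving out arrays gave -0.0767 to 0.303 for Chrna2, -0.158 to 0.0517 for Chrna5, -0.235 to 0.142 for Chrnb3, -0.35 to 0.065 for Chrna1 and -0.005 to 0.68 for Htr3a, and array weights gave -0.18 for Chrna2, 0.0601 for Chrnb3 and 0.0954 for Chrna1. The cause was not tested, but leaving out an array also leaves fewer samples. Quantile normalisation and median centring moved the median of all genes by 0.002 and 0.023. The 6 subunits under a mean level of 5 have no value under that filter.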
